A study of Bos taurus with 28 samples.

Results

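The genes described here code for the nuclear-encoded subunits of the mitochondrial respiratory chain and of ATP synthase. They were taken as the genes whose symbol in the array's platform annotation starts with NDUFA, NDUFB, NDUFC, NDUFS, NDUFV, UQCR, COX4, COX5, COX6, COX7, COX8 or ATP5, or is SDHA, SDHB, SDHC or SDHD. Assembly factors named NDUFAF were left out, and a probe set had to carry a single symbol. The rule found 102 of the 24016 probe sets tested, for 80 of 9155 genes. By complex these were 36 genes of complex I, 4 of complex II, 8 of complex III, 14 of complex IV and 16 of complex V. The remaining 2 are not structural subunits. ATP5IF1 is the inhibitor protein of ATP synthase, and COX7A2L is a factor that helps to join complexes III and IV into supercomplexes. NDUFA4 and its relative NDUFA4L2 were counted with complex IV, where the NDUFA4 protein is placed today in spite of its name.

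The study measured gene expression in mammary gland biopsies of 28 Holstein-Friesian cows in the middle of lactation, with 1 Affymetrix Bovine Genome Array for each cow. DGAT1, the last enzyme of triacylglycerol synthesis and a major source of variation in milk fat, carries either lysine (K) or alanine (A) at a polymorphic position, and the labels give each cow's genotype. The AA group, homozygous for alanine, held 11 cows, the heterozygous KA group 13, and the KK group, homozygous for lysine, 4. All of them were fed the same control diet, a mixed ration of corn silage, grass silage and concentrates. Days in milk averaged 153 (SD 32.8), milk yield 25.7 kg per day and milk fat 4.3%. The 3 groups are natural genotypes of adult cows, with no transgene, no treatment and no pooling of animals. The comparison asks which genes differ in expression with DGAT1 genotype. Cows are named by genotype and number, from AA 1 to KK 4.

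Complexes I to IV pass electrons from NADH and succinate to oxygen in the inner mitochondrial membrane. Complexes I, III and IV pump protons as they do so, and complex V, the ATP synthase, lets the protons return and makes ATP. Complexes I, III, IV and V contain subunits encoded in the mitochondrial genome beside the nuclear-encoded ones, whereas complex II, succinate dehydrogenase, is wholly nuclear-encoded and is at the same time an enzyme of the citric acid cycle. In the lactating gland the secretory epithelium spends ATP on the synthesis and secretion of milk protein, lactose and fat, and its cells are rich in mitochondria. The subunits encoded in mitochondrial DNA were not analysed here.

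Values are log2 differences from a baseline that had been subtracted for each probe set before deposit, so 0 has no meaning of its own and a value of 1 is a doubling relative to that baseline. Levels of different genes cannot be set against each other on this scale. The size of the rounding steps left in the values still shows whether a probe set's level lay above 8, between 4 and 8, or below 4 on the log2 scale, called bright, intermediate and dim here. Of the member probe sets, 56.9% were bright, against 8.6% of all probe sets tested. When each gene was represented by 1 probe set, the one of the brightest class, 57 of the 80 genes were bright, 22 intermediate and 1, COX6B2, dim. COX6B2 is the isoform of a complex IV subunit that is known from testis. The bright share was 20 of 36 genes in complex I, 4 of 4 in complex II, 7 of 8 in complex III, 10 of 14 in complex IV and 14 of 16 in complex V.

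The tissue label was checked with marker genes. Of 19 luminal and milk genes measured, 17 were bright, among them the caseins CSN1S1, CSN1S2, CSN2 and CSN3 and alpha-lactalbumin (LALBA). Of the luminal keratins, KRT19 was bright, KRT18 intermediate and KRT8 dim. The list did not move as one between genotypes: the KA minus AA estimate was positive for 15 of the 19 genes but -1.01 for KRT18. Of 13 fibroblast markers, 9 were bright too. None of 6 adipocyte markers was bright, and ADIPOQ, LEP and CIDEC were dim. Among the AA cows, numbers 2 and 9 were unlike the remaining 26 cows of the study. Their values had an SD over all probe sets of 0.86 and 0.78, where every other cow lay between 0.21 and 0.35. The luminal and milk genes averaged -1.18 and -1.55 in this pair and -0.18 to 0.17 elsewhere, while the fibroblast markers averaged 1.16 and 1.67 and elsewhere -0.64 to 0.44. In whole-tissue RNA, fewer cells of a type and less RNA per cell cannot be told apart. The difference between the 3′ and 5′ probe sets for GAPDH, which bears on RNA integrity, set this pair apart from each other. It was 1.33 in AA 2 and -0.66 in AA 9, and -0.59 to 0.97 in the other 26, with AA 11 the highest of these. For actin it was -0.14 and -0.21, within the others' range of -0.28 to 0.46. Array names carry a running number, and genotype is tied to it: between 29 and 42 lie 8 AA, 2 KA and all 4 KK cows, and between 43 and 56 lie 3 AA and 11 KA cows. The labels do not say what the number stands for. Results that rest on AA 2 and AA 9 are given with and without them, and within each range of numbers where these differ.

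Fibroblast marker levels were ordered by genotype too, and they were not alone in this. The mean of 10 myoepithelial markers was 0.27 in AA (0.16 without cows 2 and 9), 0.00 in KA and -0.18 in KK. Of the marker lists, only the fibroblast one was used as a covariate. The mean of the 13 fibroblast markers was 0.32 ± 0.62 (SD, n = 11) in AA, or 0.07 ± 0.31 (n = 9) with cows 2 and 9 left out, -0.05 ± 0.21 (n = 13) in KA and -0.27 ± 0.22 (n = 4) in KK. It ranged from -0.64 to 1.67 in AA, from -0.40 to 0.24 in KA and from -0.50 to -0.00 in KK. For the slope per K allele, 10 of the 13 markers had an unadjusted p under 0.05, all downward, where 4.48% of all probe sets did so downward, and none passed the adjusted threshold. In a fit with the fibroblast mean as a covariate, over the 40 chain genes chosen to be named and the 4 comparisons, 138 of 160 estimates moved by more than 1.5 times and 58 changed sign. These genes were chosen partly for extreme values. The counts also include very small estimates, such as the ATP5F1B slope of -0.004, which became 0.05. The same shares were not computed over all probe sets. The value with the covariate is quoted below for a gene's estimate of over 0.1 in size that moved by more than 1.5 times.

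No gene of the respiratory chain or ATP synthase passed an adjusted p of 0.05 between genotypes, and neither did any other probe set. The tests were limma fits over all 24016 probe sets with Benjamini-Hochberg adjustment. For the slope per K allele, 0 of 80 members were called and the background share called was 0.0%, with a smallest adjusted p over all probe sets of 0.526. The same counts were 0 of 80 and 0.0% for KK minus AA, for KA minus AA and for KK minus KA, where the smallest adjusted p values were 0.909, 0.0602 and 1.0.

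By the unadjusted p, the share of members under 0.05 was below that of all probe sets in each comparison with all arrays. For the slope per K allele, 4 of 80 members were under it, where 9.16% of all probe sets were. The 3 with a positive slope were SDHA, ATP5MC1 and NDUFS8, against 4.68% of all probe sets, and the 1 with a negative slope was COX7A2L, against 4.48%. For KK minus AA the members were 2 of 80, SDHA upward and COX7A2L downward, against 3.51% of all probe sets, 2.0% upward and 1.51% downward. For KA minus AA they were 8 of 80, against 21.8% (10.8% upward, 11.1% downward): SDHA, SDHB, NDUFA10 and ATP5MC1 upward, and ATP5IF1, NDUFAB1, NDUFA6 and SDHC downward. For KK minus KA the single member was ATP5F1E, upward, against 2.84% (1.44% upward, 1.39% downward). With AA 2 and AA 9 left out, the counts were 1, 1, 2 and 5 of 80, against 3.26%, 2.76%, 9.5% and 6.08% of all probe sets. The share for KK minus KA was then near that of all probe sets and not below it. The member in the slope was SDHA, the one in KK minus AA was ATP5F1E with an estimate of 0.20, and those in KA minus AA were SDHA and SDHB. The 5 in KK minus KA, none of them past the adjusted threshold, were SDHC, ATP5F1E, NDUFS6, NDUFS4 and NDUFA6, each with a positive estimate.

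As a group, the members had median estimates under 0.05 in size in every comparison. The median estimate over the 80 genes was 0.004 for the slope per K allele, 0.028 for KK minus AA, -0.027 for KA minus AA and 0.045 for KK minus KA. The medians over all probe sets were 0.009, 0.009, 0.020 and -0.001. Estimates were positive for 42, 52, 35 and 54 of the 80 members in the same order, where 54.0%, 52.2%, 54.5% and 49.5% of all probe sets were. The split depended on scaling: positive estimates numbered 52, 60, 40 and 52 after quantile normalization, and 57, 60, 47 and 45 when each array was centred on the other bright probe sets. With that centring the medians were 0.032, 0.059, 0.037 and 0.012, so the one for KA minus AA changed sign. Leaving out AA 2 and AA 9 gave medians of 0.025, 0.074, 0.015 and 0.045, with 67, 63, 50 and 54 positive estimates. The medians over all probe sets were then 0.004, 0.005, 0.008 and -0.001. Positive estimates over all probe sets were counted only in the main fit with all arrays, so the counts under other settings have no background beside them. Over the single genes, the median half-width of the 95% interval was 0.121 for the slope, 0.258 for KK minus AA, 0.181 for KA minus AA and 0.253 for KK minus KA. With the fibroblast marker covariate the medians were 0.042, 0.098, 0.012 and 0.074, with 68, 69, 50 and 59 positive estimates.

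**Figure D1:**
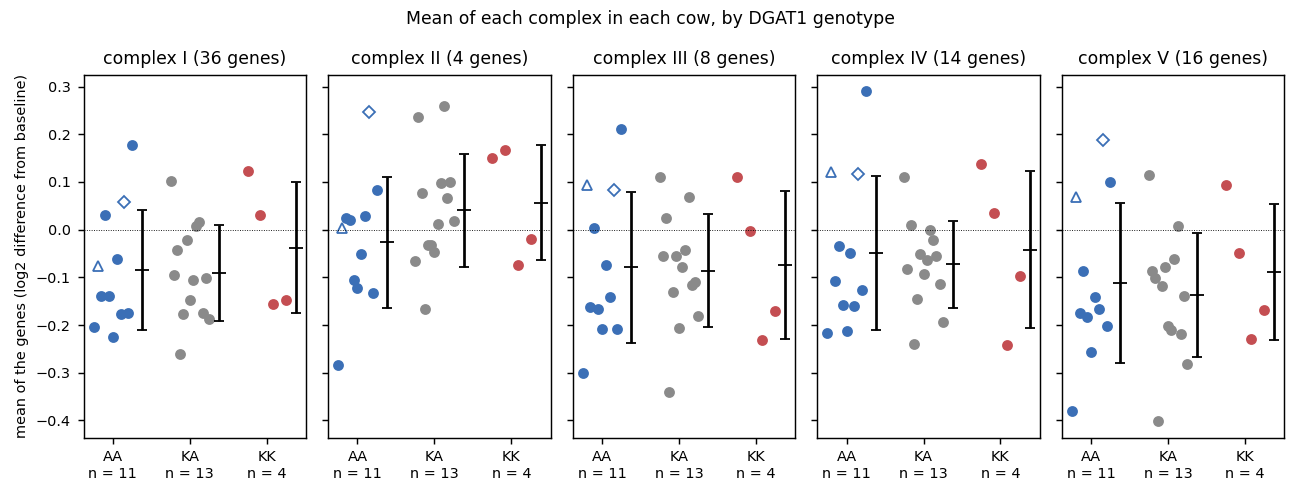
Mean over the genes of each complex in each cow (log2 difference from baseline, vertical axis), by genotype, with the mean and SD of the group beside the points; AA 2 is the open triangle and AA 9 the open diamond. The genotypes overlap in every complex, and the spread between cows of 1 genotype is larger than the distance between the group means.

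By complex, the mean over the 36 genes of complex I was -0.08 ± 0.13 (SD, n = 11) in AA, -0.09 ± 0.10 (n = 13) in KA and -0.04 ± 0.14 (n = 4) in KK. Complex II had means of -0.03 ± 0.14, 0.04 ± 0.12 and 0.06 ± 0.12, and complex III had -0.08 ± 0.16, -0.09 ± 0.12 and -0.07 ± 0.16. Complex IV had -0.05 ± 0.16, -0.07 ± 0.09 and -0.04 ± 0.16, and complex V had -0.11 ± 0.17, -0.14 ± 0.13 and -0.09 ± 0.14. In each of these complexes the distance between any 2 group means was smaller than the SD within a group, as the plot of complex means by genotype shows. With all 28 cows, only complex II of these 5 complexes had means rising in the order AA, KA, KK. That rested on AA 2 and AA 9. Without them the AA means of complexes I to V were -0.10, -0.06, -0.12, -0.09 and -0.17, and all 5 complexes had that order. The 4 genes of complex II are described one by one next.

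Complex II holds the gene with the smallest unadjusted p of all members. SDHA is the flavoprotein that binds and oxidises succinate. Its values in AA cows ran from -0.64 to 0.06 with a median of -0.08, and in KA cows from -0.09 to 0.49 with a median of 0.17. The 4 KK cows had 0.36, 0.12, 0.13 and -0.00. The groups overlapped, although all but 2 of the KA cows were at 0.06 or above and the 2 lowest AA values were those of AA 2 and AA 9. The estimates were 0.31 (SE 0.08, adjusted p = 0.124, limma) for KA minus AA, a 1.24-fold difference, 0.27 (SE 0.11, adjusted p = 0.909) for KK minus AA, and 0.18 per K allele (SE 0.06, adjusted p = 0.526). Leaving out those 2 cows gave 0.23 (adjusted p = 0.252), 0.19 and 0.12, and the fibroblast marker covariate gave 0.24, 0.16 and 0.11. KA minus AA was 0.20 within array numbers 29 to 42 and 0.31 within 43 to 56, and 0.13 and 0.20 there without AA 2 and AA 9. Without AA 1, SDHA passed the threshold for KA minus AA with an adjusted p of 0.0497, in a fit that called 525 probe sets in all. Over all 45 alternative fits of that comparison, its estimate stayed between 0.13 and 0.38 and its adjusted p between 0.0497 and 1.0.

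SDHB, the iron-sulfur subunit that takes the electrons from SDHA, had values of -0.77 to 0.18 (median -0.05) in AA, -0.18 to 0.61 (median 0.08) in KA, and 0.13, 0.14, -0.12 and -0.12 in KK. The lowest AA values were -0.77 in AA 2 and -0.73 in AA 1, and the groups overlapped widely. KA minus AA was 0.27 (SE 0.11, adjusted p = 0.173), and 0.24 without AA 2 and AA 9. It was 0.26 within array numbers 29 to 42 and 0.09 within 43 to 56. SDHC and SDHD anchor these catalytic subunits in the membrane and carry the ubiquinone site. SDHC ran from -0.35 to 0.55 (median -0.04) in AA, from -0.36 to 0.25 (median -0.15) in KA, and had 0.06, 0.28, -0.08 and 0.10 in KK. Its KA minus AA estimate was -0.17 (adjusted p = 0.227), or -0.11 with the fibroblast marker covariate, and its KK minus KA estimate 0.22, with overlapping groups. SDHD ran from -0.28 to 0.87 (median 0.02) in AA, from -0.20 to 0.39 (median -0.08) in KA, and had 0.05, 0.12, -0.23 and -0.07 in KK. Its 2 highest values, 0.87 and 0.87, were those of AA 2 and AA 9.

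Within complex II the pairing of the genes from cow to cow depended on AA 2 and AA 9. Across the 28 arrays, SDHA and SDHB had a Pearson r of 0.70, and SDHC and SDHD one of 0.66. SDHA had r of -0.52 with SDHC and -0.49 with SDHD. Over the 26 other arrays the r within the pairs was 0.68 and 0.44. SDHA then had -0.21 with SDHC and 0.20 with SDHD, and SDHB had -0.19 and 0.52. SDHB and SDHD thus went together more closely than the anchor pair did there, and SDHC was the gene apart from both catalytic subunits. These are descriptions across arrays that share preparation and normalization.

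**Figure D2:**
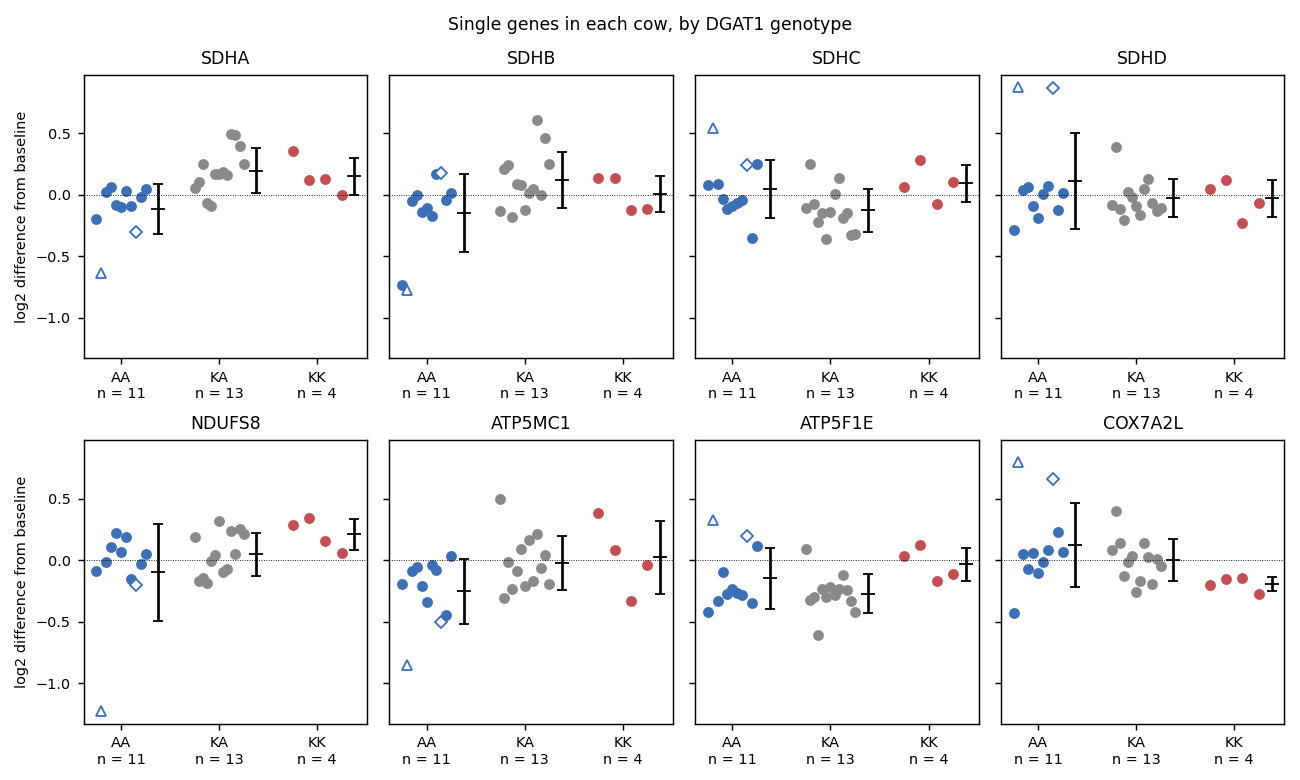
Values of 8 single genes in each cow (log2 difference from baseline, vertical axis) by genotype, with the mean and SD of the group beside the points; AA 2 is the open triangle and AA 9 the open diamond. The KA median of SDHA, 0.17, lies above the highest AA value, 0.06, the 4 KK cows of COX7A2L lie between -0.27 and -0.15, and AA 2 is the lowest point for SDHA, SDHB, NDUFS8 and ATP5MC1 and the highest for SDHC, SDHD, ATP5F1E and COX7A2L.

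In complex I the largest estimates were tied to AA 2. NDUFS8 is a core subunit that holds a pair of iron-sulfur clusters on the electron path. It ran from -1.22 to 0.22 (median -0.01) in AA, from -0.18 to 0.32 (median 0.04) in KA, and had 0.28, 0.34, 0.16 and 0.06 in KK. KK minus AA was 0.31 (SE 0.16, adjusted p = 0.909). The value of -1.22 was AA 2, and without AA 2 and AA 9 the difference was 0.17. With the fibroblast marker covariate it was 0.15. Its slope of 0.15 was 0.07 without that pair, and 0.07 with the fibroblast marker covariate. NDUFS6, an accessory subunit of the same electron-input arm, ran from -1.33 (AA 2) to 0.21 (median -0.03) in AA and from -0.23 to 0.17 (median -0.01) in KA, and had 0.14, 0.32, 0.09 and 0.08 in KK. Its KK minus AA estimate was 0.30 over all 28, 0.13 without those 2 and 0.05 with the fibroblast marker covariate. NDUFA10, an accessory subunit of the membrane arm, ran from -1.19 to 0.32 (median -0.06) in AA and from -0.19 to 0.33 (median 0.17) in KA, with 0.17, 0.22, -0.05 and -0.02 in KK. KA minus AA was 0.27 (adjusted p = 0.182), 0.14 without AA 2 and AA 9, and 0.15 with the fibroblast marker covariate.

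The negative estimates of complex I followed the same arrays with the opposite sign. NDUFS5, an accessory subunit that faces the intermembrane space, reached 0.74 and 0.77 in AA 2 and AA 9, where the remaining cows lay between -0.43 and 0.16. Its slope per K allele was -0.11, -0.01 without them, and 0.03 with the fibroblast marker covariate, a change of sign. NDUFAB1, the mitochondrial acyl carrier protein that is also part of complex I, had 0.53 and 0.55 there and 0.65 in AA 11. Its KA minus AA estimate was -0.21 (adjusted p = 0.222) over all 28, -0.11 without AA 2 and AA 9, and -0.09 with the covariate. NDUFS4, an accessory subunit needed for a stable electron-input arm, had 0.19, 0.13, -0.19 and -0.21 in KK against -0.62 to 0.05 (median -0.25) in KA, a KK minus KA estimate of 0.23 (adjusted p = 1.0). The KK cows split, with 1 and 2 above every KA cow and 3 and 4 inside the KA range. NDUFA6, also accessory, had 0.06, -0.02, -0.12 and -0.21 in KK against -0.46 to -0.00 (median -0.28) in KA, an estimate of 0.18. NDUFV3, a small accessory subunit, had the least spread in complex I over all arrays, between -0.23 and 0.35, and its KA minus AA estimate was 0.02.

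In complex III, UQCRB, which sits close to the ubiquinone site, had a slope per K allele of 0.05, and UQCRC1, a core subunit without a redox centre, one of 0.06. UQCRC1 ran from -0.90 to 0.33 (median 0.18) in AA, from -0.00 to 0.66 (median 0.22) in KA, and had 0.00, 0.14, 0.24 and 0.02 in KK, with overlapping groups. UQCRH, the acidic hinge subunit that lies next to cytochrome c1, ran from -0.27 to 1.06 (median -0.01) in AA, from -0.32 to 0.22 (median -0.10) in KA, and had 0.14, -0.26, -0.26 and -0.13 in KK. Its slope was -0.15 (SE 0.08, adjusted p = 0.528), -0.03 without AA 2 and AA 9, which had 1.06 and 0.96, and 0.02 with the fibroblast marker covariate. UQCRC2, the partner core subunit, had a slope of -0.02. UQCRQ had the smallest spread of the complex over all arrays, and its slope was 0.02.

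In complex IV, COX6A2 and COX7A1 are isoforms known from heart and skeletal muscle, COX6A1 and COX7A2 are their widely expressed counterparts, and COX8A and COX8B form such a pair too. COX7A1 had the largest spread of all 80 members. It ran from -0.26 to 2.01 (median 0.05) in AA, from -0.24 to 0.41 (median 0.01) in KA, and had -0.15, -0.03, -0.00 and 0.26 in KK. AA 2 and AA 9 held 2.01 and 1.85, and AA 11 held the next value, 0.75. Its slope was -0.22 (SE 0.14, adjusted p = 0.538), -0.00 without AA 2 and AA 9, and 0.09 with the fibroblast marker covariate, so its sign turned. COX7A2 had 0.60 in AA 2 but 0.09 in AA 9, within the other arrays' range of -0.46 to 0.35. COX6A2 had -0.55 and -0.51 in the same arrays, below the other 26 (-0.29 to 0.48), so these 2 muscle isoforms differed in opposite directions there. Striated muscle genes measured numbered 7, COX6A2, COX7A1 and COX8B included. CKM had 1.63 and 1.41 in AA 2 and AA 9, and the other arrays ran from -0.92 to 1.47, so AA 9 was within them. ACTA1 had -0.42 and 0.01 (others -0.37 to 0.32), and the myoglobin gene MB -0.07 and -0.39 (others -0.24 to 0.53). COX8B had 0.09 and 0.25 by its bright probe set, within the other arrays' range of -0.38 to 0.30. Its second probe set, of the intermediate class, gave -0.76 and -1.01 there. That probe set had a slope of 0.10, where the bright one had -0.01, and the r between them was -0.41. The COX8B values in these arrays thus depended on the probe set. MYH7, a myosin heavy chain, had 0.00 in AA 2 but 0.66 in AA 9, above the highest other value of 0.31, and its KA minus AA estimate was -0.38 (adjusted p = 0.126, limma).

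COX4I1, the largest nuclear-encoded subunit of complex IV, had values of 0.59 and 0.93 in AA 2 and AA 9, the remaining cows lying between -0.72 and 0.37. Its slope was -0.11, -0.02 without them, and 0.08 with the fibroblast marker covariate, where the sign turned. COX8A, a small subunit of the complex, had the least spread of complex IV over all arrays, between -0.33 and 0.22, with a slope of 0.05 and overlapping genotypes. NDUFA4L2, a relative of NDUFA4 known as a target of hypoxia signalling, had -1.09 and -1.13 in AA 2 and AA 9 against -0.54 to 0.58 in the others. NDUFA4 itself had -0.29 and -0.43, within its range of -0.52 to 0.34. The KA minus AA estimate of NDUFA4L2 was 0.27 over all 28, 0.08 without AA 2 and AA 9, and 0.02 with the covariate.

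In complex V, ATP5MC1, ATP5MC2 and ATP5MC3 code for precursors of the same mature protein, the c subunit of the proton-driven ring. ATP5MC1 ran from -0.85 to 0.04 (median -0.19) in AA, from -0.31 to 0.49 (median -0.06) in KA, and had 0.38, 0.08, -0.33 and -0.04 in KK. Its slope per K allele was 0.16 (SE 0.07, adjusted p = 0.526) and its KA minus AA estimate 0.23 (adjusted p = 0.203). These were 0.10 and 0.13 without AA 2 and AA 9, and 0.06 and 0.11 with the fibroblast marker covariate. The slopes of ATP5MC2 and ATP5MC3 were -0.03 and 0.03, and ATP5MC2 split AA 2 (-0.27) from AA 9 (0.88). The 3 genes for the c subunit thus had different values in the same cows.

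ATP5F1E, the epsilon subunit of the central stalk, gave the only member with an unadjusted p under 0.05 for KK minus KA. It had 0.03, 0.12, -0.17 and -0.12 in KK against -0.61 to 0.09 (median -0.29) in KA, with overlap, and the difference was 0.24 (adjusted p = 1.0). In AA it ran from -0.42 to 0.33 (median -0.27). Within array numbers 29 to 42, which hold all KK and 2 KA cows, KK minus KA was 0.08. ATP5F1D, the delta subunit beside it, split the arrays that stood apart: -1.22 in AA 2, 0.60 in AA 9, and -0.42 to 0.52 elsewhere. Its second probe set, of the same intermediate class, gave 0.04 and 1.55 in these arrays and a slope of -0.10 where the first gave 0.05, so the low value in AA 2 was seen with 1 of the 2 probe sets. ATP5F1B, the catalytic beta subunit, had the smallest spread in complex V over all arrays, between -0.39 and 0.34, and its KK minus AA estimate was 0.01 with a 95% interval from -0.19 to 0.22. ATP5F1C, the gamma subunit that turns within the catalytic head, had a slope of 0.09, ATP5PF, part of the peripheral stalk, one of -0.07, and ATP5F1A, the alpha subunit, one of -0.04.

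The 2 genes outside the complexes held low values in KK or KA. COX7A2L had -0.21, -0.15, -0.15 and -0.27 in the 4 KK cows, from -0.43 to 0.80 (median 0.06) in AA and from -0.26 to 0.40 (median 0.01) in KA. All 4 KK values lay under both medians, and the groups overlapped. KK minus AA was -0.32 (SE 0.14, adjusted p = 0.909), a 0.80-fold ratio, and -0.18 without AA 2 and AA 9. With the fibroblast marker covariate it was -0.04, and the slope per K allele, -0.15 with all arrays, was -0.01. ATP5IF1, which holds back ATP hydrolysis by the synthase when the membrane potential is lost, ran from -0.62 to 0.81 (median -0.24) in AA, from -0.81 to 0.07 (median -0.40) in KA, and had -0.00, -0.04, -0.20 and -0.40 in KK. KA minus AA was -0.33 (SE 0.14, adjusted p = 0.204), but 0.20 within array numbers 29 to 42 and -0.72 within 43 to 56. With AA 2 and AA 9 left out, the within-range values were 0.35 and -0.44. Over both ranges KA minus AA was -0.13 without that pair, -0.10 with the fibroblast marker covariate, -0.21 after quantile normalization and -0.17 with array weights.

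The KA minus AA difference of the whole set also turned with the array numbers. Within numbers 29 to 42 (2 KA against 8 AA) the median member estimate was 0.140, with 71 of 80 positive, and 0.178 without AA 2. None of the 80 had an unadjusted p under 0.05 there (1.71% of all probe sets did), and 6 did without AA 2 (3.8%), none of them past the adjusted threshold in limma. Within 43 to 56 (11 KA against 3 AA, AA 9 among them) it was -0.185, with 17 of 80 positive, and -0.128 without AA 9. In the second range 4 members passed the adjusted threshold, against 9.08% of all probe sets: COX4I1 (-0.55), COX7A1 (-0.83), ATP5MG (-0.34) and ATP5IF1 (-0.72), all lower in KA. Without AA 9 none of the members passed in limma, where 0.025% of all probe sets passed. An unadjusted p under 0.05 was found for 5 of the 80, against 13.6% of all probe sets. Of the 3 AA cows in that range, AA 9 and AA 11 had member means of 0.12 and 0.18 and AA 10 one of -0.17, so these estimates rest on 3 AA cows that differ among themselves. The 2 KA cows of the first range differed too, with member means of 0.10 in KA 1 and -0.06 in KA 2. Positive estimates over all probe sets were not counted within either range, so the counts of positive members have no background beside them.

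**Figure D3:**
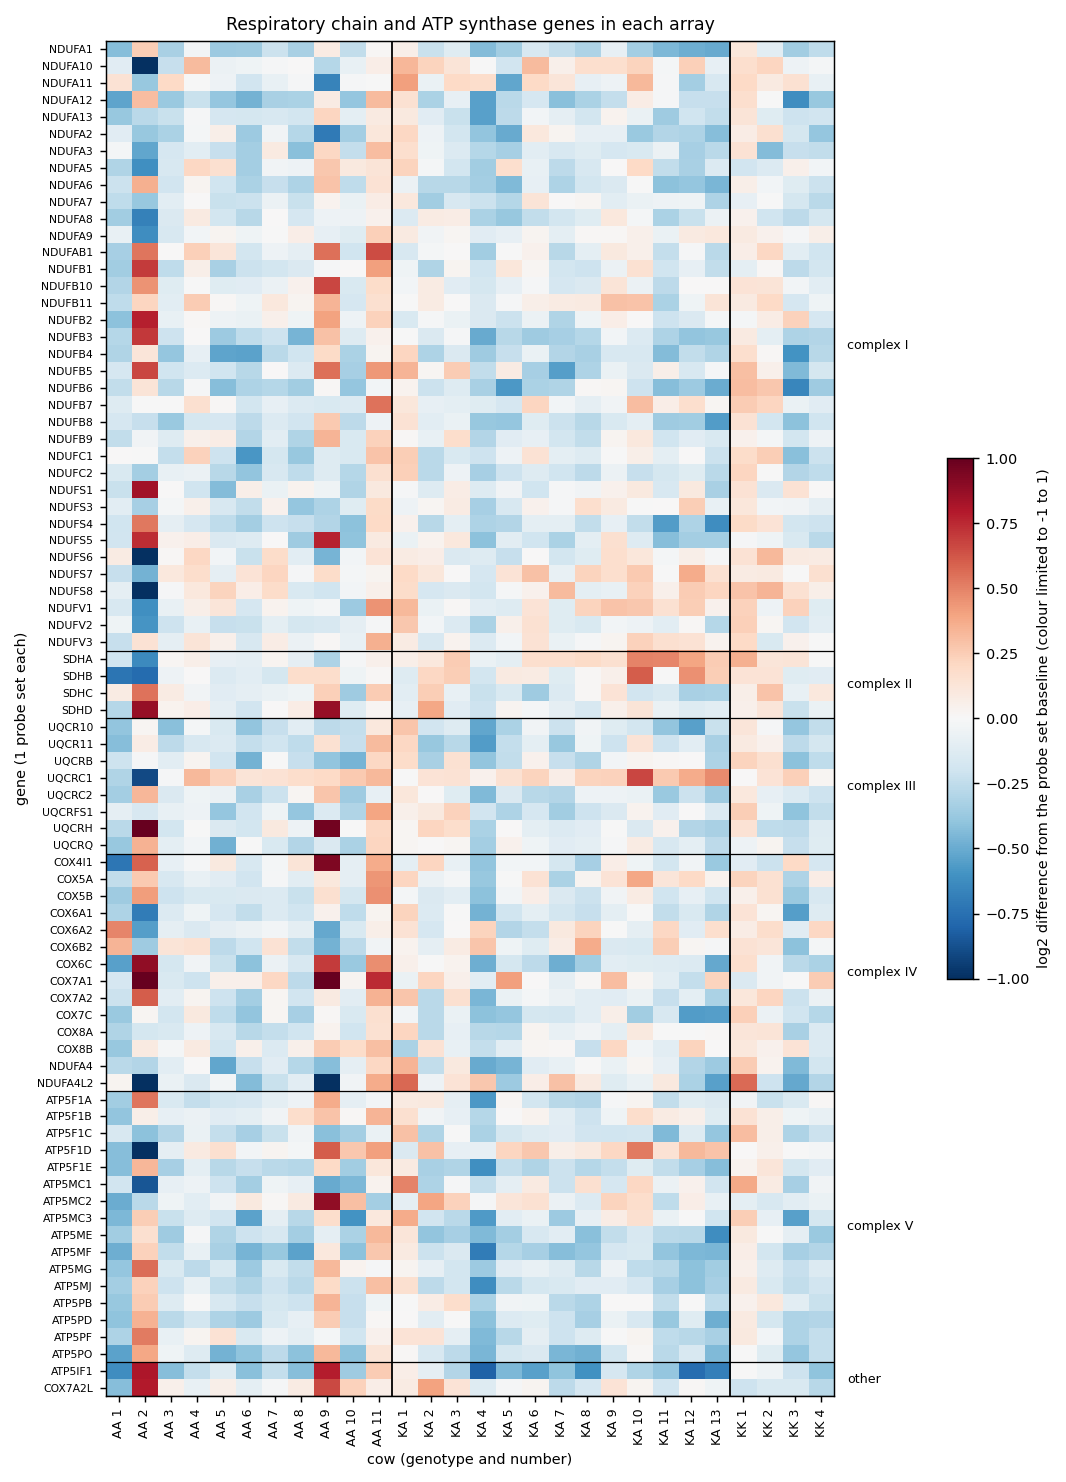
Values of the 80 genes (vertical axis, grouped by complex) in each of the 28 cows (horizontal axis, grouped by genotype), with colour showing the log2 difference from the probe set baseline, limited to -1 to 1. Whole columns are shifted together in cows such as AA 1, KA 4 and AA 11, while AA 2 and AA 9 hold strong values of both signs.

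Array by array, many members shifted in the same direction. Their mean ran from -0.29 in KA 4 and -0.26 in AA 1 to 0.11 in KK 1 and 0.18 in AA 11. In AA 11, 69 of the 80 genes were above 0, in KK 1 67 and in KA 1 57, whereas 7 were in AA 1 and in AA 6, and 5 in KA 4. Each genotype held cows at both ends: KK 1 at 0.11 and KK 3 at -0.19, KA 1 at 0.10 and KA 4 at -0.29, AA 11 at 0.18 and AA 1 at -0.26. The mean of the other bright probe sets ran from -0.22 to 0.11, that of the citric acid cycle genes from -0.20 to 0.30 and that of the cytosolic ribosomal proteins from -0.41 to 0.57. In AA 1, where the member mean was -0.26, the other bright probe sets had -0.22 and the cytosolic ribosomal proteins -0.41. The low value of AA 1 was thus not particular to the chain genes. In KA 4 these lists had -0.14 and -0.28, in KK 1 -0.00 and -0.11, and in AA 11 0.07 and 0.10. Genes above 0 were not counted among the other bright probe sets, so the counts of members above 0 have no background beside them. The heat map of members by cow shows the member shifts as whole columns.

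The complexes shared the shift. The means of complexes I, III, IV and V were all above 0 in 4 arrays (KK 1, KA 1, AA 9 and AA 11) and all below 0 in 18 of 28. Complex I had a Pearson r of 0.92 with complex III (Spearman rho 0.91), 0.90 with complex IV (rho 0.90) and 0.88 with complex V (rho 0.90) over the 28 arrays. These r were 0.94, 0.93 and 0.92 without AA 2 and AA 9. Within array numbers 29 to 42 (n = 14) they were 0.88, 0.87 and 0.85, and within 43 to 56 (n = 14) 0.95, 0.93 and 0.90. Leaving out the 2 arrays farthest from the median of the partner complex gave 0.88, 0.85 and 0.87. Complex II followed less closely, with r of 0.58 to complex I, 0.67 to complex III, 0.55 to complex IV and 0.66 to complex V. These points share the array, its preparation and its normalization, and the values are descriptions.

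Gene by gene, the median r over the 3160 pairs of members was 0.37 over all 28 and 0.44 without AA 2 and AA 9, where 92.3% of pairs were positive. Among the 2013 other bright probe sets the median was 0.10 in both. Pairs of cytosolic ribosomal proteins were closer than those of the members, with a median of 0.80, and 0.72 without AA 2 and AA 9, whereas citric acid cycle genes had 0.21 and 0.25 and mitochondrial ribosomal proteins 0.15 and 0.17. In complex I without those 2 arrays, 98.6% of 630 pairs were positive. Against the mean of all other members, the median r of a gene was 0.70 over the 26 arrays and 61 of 80 genes were above 0.5. The 4 highest were ATP5MF (0.92), a small membrane subunit of ATP synthase, COX6C (0.88) and COX6A1 (0.87) of complex IV, and NDUFA12 (0.88), an accessory subunit of complex I. COX6A2 (-0.17), COX6B2 (-0.03) and ATP5MC2 (-0.02) were the 3 that did not follow. The 6 core subunits of complex I that were measured (NDUFS1, NDUFS3, NDUFS7, NDUFS8, NDUFV1 and NDUFV2) had a median r of 0.50, against 0.69 for its 30 accessory subunits and 0.67 for the 11 accessory subunits that were intermediate in level.

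The single genes had a median SD slightly below that of all probe sets once AA 2 and AA 9 were set aside. Their SD over the 26 arrays had a median of 0.178 and ran from 0.087 for NDUFA9, an accessory subunit of complex I, to 0.294 for NDUFA4L2. The median over all probe sets was 0.201 and over other bright probe sets 0.209. By complex the median SD was 0.161 in I, 0.181 in II, 0.190 in III, 0.201 in IV and 0.181 in V.

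**Figure D4:**
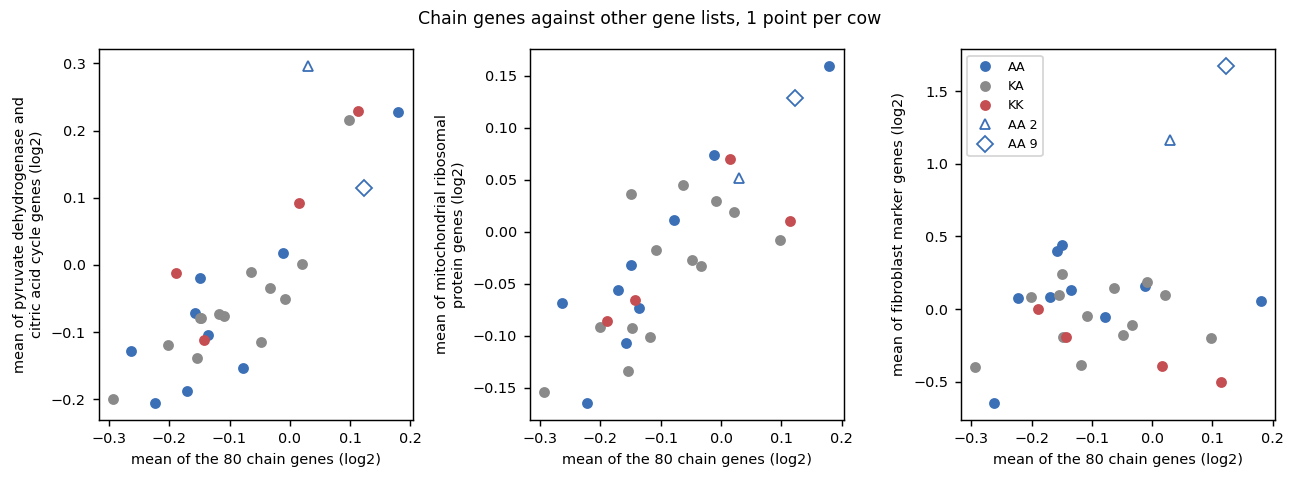
Mean of the 80 chain genes (horizontal axis) against the mean of 3 other gene lists (vertical axes, all log2 differences from baseline), 1 point per cow coloured by genotype. Cows with higher chain genes had higher citric acid cycle and mitochondrial ribosome genes (r of 0.84 and 0.82), whereas the fibroblast markers had r of 0.30, or -0.03 when AA 2 and AA 9 are left out.

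The other mitochondrial lists followed the chain from cow to cow to different degrees. The mean of the members had an r of 0.84 (rho 0.80, n = 28) with the mean of 15 genes of pyruvate dehydrogenase and the citric acid cycle, which make the NADH and succinate that feed the chain. It had 0.82 (rho 0.80) with 67 genes of the mitochondrial ribosome, which makes the mitochondrially encoded subunits. Over the 26 other arrays these were 0.86 and 0.79, within array numbers 29 to 42 0.85 and 0.74, and within 43 to 56 0.92 and 0.89. Leaving out the 2 arrays farthest from the median of the other list gave 0.85 and 0.74. With the assembly factors r was lower, 0.42 (rho 0.34), 0.67 without AA 2 and AA 9, and 0.18 without AA 6 and AA 11, the 2 farthest from their median. With the mean of all other bright probe sets r was 0.56, and 0.49 without AA 2 and AA 9, and with the cytosolic ribosomal proteins 0.54 and 0.43. The fibroblast markers had 0.30 and -0.03 and the luminal and milk genes -0.29 and 0.36 in the same order. The difference between the 3′ and 5′ probe sets for actin, a sign of RNA integrity, had -0.44 and -0.35. The same difference for GAPDH had 0.19 and 0.23 (rho -0.08 and -0.09), and -0.36 without AA 2 and AA 11, the 2 farthest from its median. The part of RNA quality in the shared shift was not tested.

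None of these neighbouring lists passed the adjusted test in any gene for any genotype comparison. For the slope per K allele, 4.68% of all probe sets had an unadjusted p under 0.05 upward and 4.48% downward. The counts under it were 1 upward and 0 downward of 15 citric acid cycle genes, and 2 and 1 of 29 assembly factors. They were 0 and 0 of 67 mitochondrial ribosomal proteins, and 1 and 0 of 14 genes of mitochondrial biogenesis. Among 18 further parts of oxidative phosphorylation, such as cytochrome c1 and the carriers of adenine nucleotides, with ATP5IF1 in the list too, the counts were 1 and 0. For KA minus AA, 21.8% of all probe sets were under 0.05, 10.8% upward and 11.1% downward. The counts of the lists in the same order were 0 and 2, 4 and 2, 1 and 5, 1 and 0, and 1 and 2. SDHAF1, which assembles the iron-sulfur clusters of SDHB, had a KA minus AA estimate of 0.31 (adjusted p = 0.160), and SUCLG1, a subunit of succinyl-CoA ligase, which makes succinate, had a slope of 0.12 (adjusted p = 0.526).

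CYC1, cytochrome c1 of complex III, lies outside the symbol rule but near DGAT1. In the gene order of the RefSeq annotation of chromosome 14, 9 protein-coding genes stand between them. Its KA minus AA estimate was 0.25 (adjusted p = 0.203) and its KK minus AA estimate 0.15. CYC1 was at -1.19 in AA 2, against -0.20 to 0.45 in the 26 arrays. Of the members on that chromosome, NDUFB9 had 104, COX6C 316 and UQCRB 334 genes between it and DGAT1, and their slopes were -0.01, -0.10 and 0.05.

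**Figure D5:**
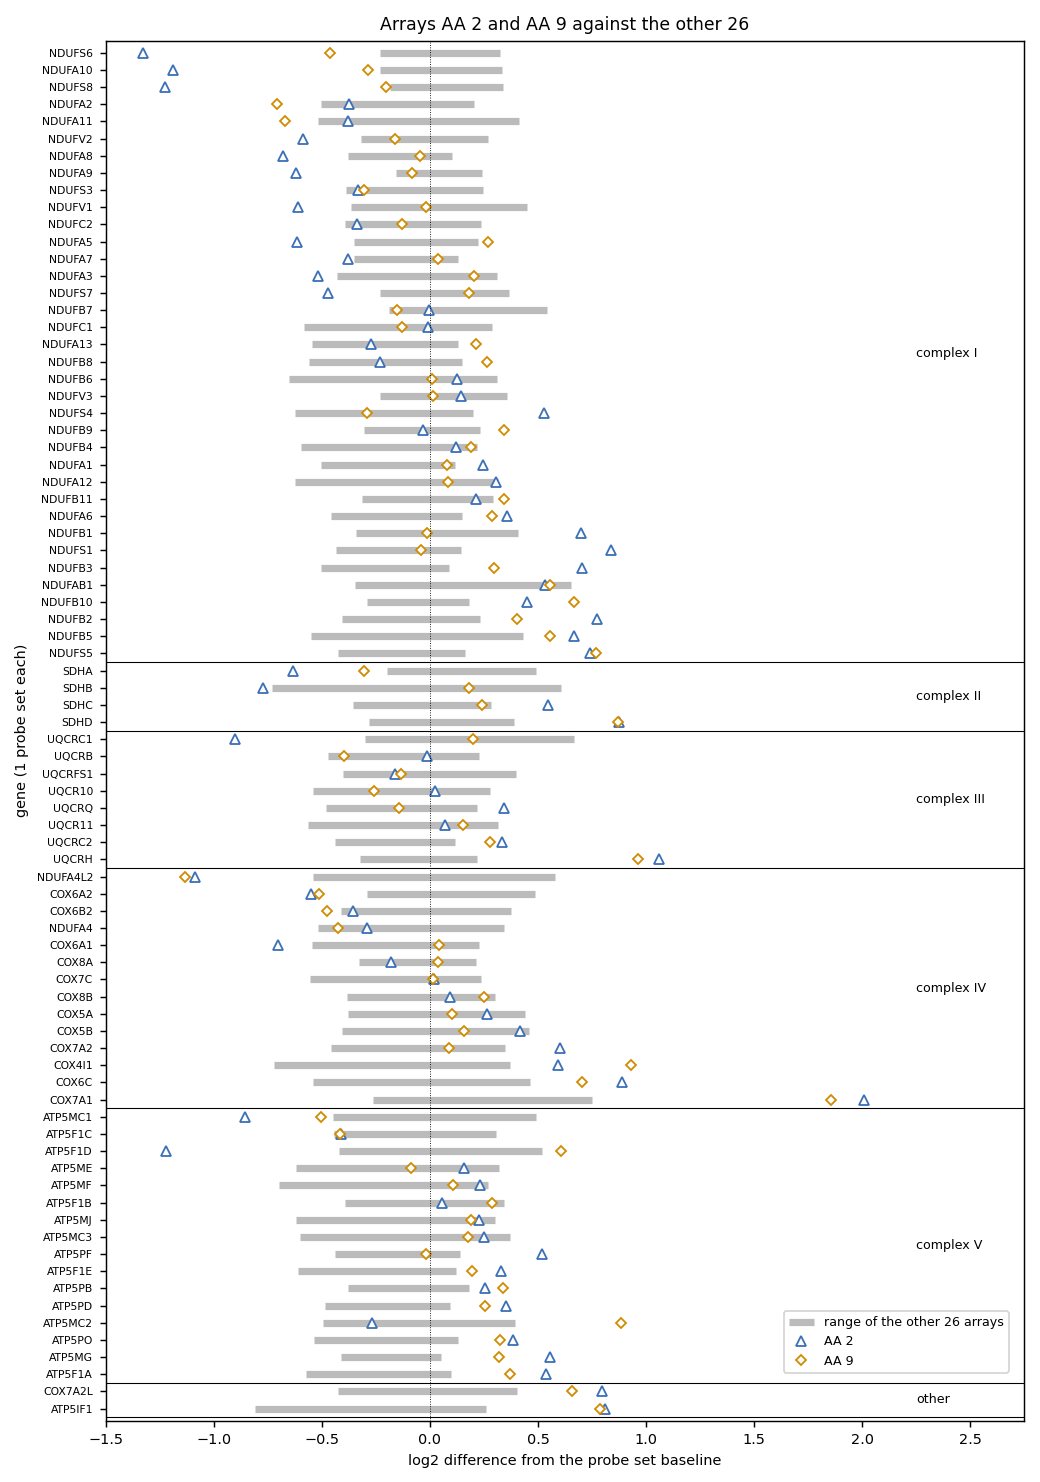
Values of each of the 80 genes in AA 2 (triangles) and AA 9 (diamonds) against the range over the other 26 arrays (grey bars), on a log2 scale, ordered within complex. COX7A1 and UQCRH lie far above the other arrays in both, NDUFA4L2 lies far below in both, and ATP5F1D, by the probe set used, lies far below in AA 2 and above in AA 9.

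AA 2 and AA 9 were low in milk genes and high in fibroblast markers, and their chain genes were not low as a set. In AA 2, 28 members lay above the range of the other 26 arrays and 19 below it, where 26.5% and 30.8% of all probe sets did. In AA 9, 27 lay above and 10 below, where 26.6% and 26.4% of all probe sets did. The shares among the other bright probe sets were 42.0% above and 25.6% below in AA 2, and 43.3% and 18.8% in AA 9. Most complex means lay within the range of the other cows: -0.08 and 0.06 for complex I, 0.09 and 0.08 for complex III, 0.12 and 0.12 for complex IV, and 0.07 and 0.19 for complex V in AA 2 and AA 9. The exception among these was complex V in AA 9, where the highest other cow had 0.11. Complex II had 0.00 and 0.25, within the others' range of -0.28 to 0.26, and the 2 genes outside the complexes had 0.80 and 0.72, above the others' highest of 0.16. The spread among the members was wide instead, with an SD over the 80 genes of 0.61 and 0.44 in the pair and of 0.13 to 0.24 elsewhere.

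In both arrays 20 members lay above the others, where 18.4% of all probe sets did. They included COX7A1, UQCRH, SDHD, COX4I1, COX6C, NDUFS5, ATP5IF1 and COX7A2L. Of the 16 genes of complex V, 6 were among them: ATP5F1A and ATP5F1E of the catalytic head and central stalk, ATP5PB, ATP5PD and ATP5PO of the peripheral stalk, and ATP5MG of the membrane part. The share above in both arrays was not computed for the other bright probe sets. The 7 that lay below the others in both were NDUFA10, NDUFS6, NDUFS8, SDHA, COX6A2, NDUFA4L2 and ATP5MC1, where 17.7% of all probe sets did. In complex V, 7 genes were above and 2 below in AA 2, and 8 above and 1 below in AA 9. The shares above, 43.75% and 50%, were near the 42.0% and 43.3% of the other bright probe sets. The shares below were 12.5% and 6.25%, against 25.6% and 18.8%. In complex I, 10 were above and 11 below in AA 2, and those below included the core subunits NDUFS7, NDUFS8, NDUFV1 and NDUFV2. The lowest in AA 9 beside NDUFA4L2 were NDUFA2 (-0.71) and NDUFA11 (-0.67), both accessory subunits of complex I. The highest in AA 2 after COX7A1 and UQCRH was COX6C (0.89, and 0.70 in AA 9). The part of the fibroblast and milk gene levels in the chain genes of these arrays was not tested.

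The values above rest on 1 probe set for each gene. More than 1 probe set existed for 20 genes, in 22 pairs with the one used, and agreement was rare: r was above 0.5 in 1 of the 22 pairs, ATP5MG, over all arrays, and in 1 pair, ATP5F1D, without AA 2 and AA 9. ATP5MG had 0.77 and 0.50 in the same order, and ATP5F1D 0.44 and 0.59. In 12 of these pairs the other probe set was dim, and over all arrays, the count above 0.5 among the 10 where neither was dim was still 1. The slopes had opposite signs in 8 pairs. The intermediate second probe set for UQCRB gave a slope of 0.23 and -1.63 in AA 2, where the bright one gave 0.05 and -0.01. The second one for COX6A1 gave a slope of 0.25, where the first gave 0.04. SDHA, SDHB, NDUFS8, COX7A1, COX7A2L and ATP5MC1 each had a single probe set, so their values have no such check.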

How the data were processed

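RNA of 1 mammary biopsy per cow was hybridised to 1 array each (AA 11, KA 13, KK 4). The deposited log2 values had been normalized by the authors and set as differences from a baseline per probe set that is not described. Per the labels' protocols this was done in Bioconductor 2.7 under R 2.13, and the submitters' processing notes name RMA and GCRMA without saying which gave the values. Signal over background is therefore unknown, and precision is set by how many arrays each genotype has.

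Of 24128 probe sets, 112 controls were left out. Of the rest, 13292 had 1 gene symbol, 86 several and 10638 none, and 13263 of the named ones matched the RefSeq table (ARS-UCD2.0) by gene identifier and took its current symbol. The members' rule and gene lists were chosen with earlier results of these data known. For each gene 1 probe set was used, taken from the brightest class and then by the plainest type. A class was set where 0.9 of the values lay on rounding steps of that level.

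Genotypes were compared with limma 3.58.1 (lmFit, eBayes) in R 4.3.3 over all 24016 probe sets, with 1 mean per genotype or a slope on the number of K alleles, and Benjamini-Hochberg adjustment at 0.05. The fits were tested on simulated data with independent noise and known changes in the 80 members. For KK minus AA, log2 changes of 0.3, 0.5 and 1 were called in 1.25%, 31.25% and 98.75% of the members. For KA minus AA these shares were 13.75%, 73.75% and 100%. Changes of 0.3 would thus mostly be missed. Summaries used Python 3.11.15, numpy 2.4.6 and pandas 2.3.3. Complex means and correlations are descriptions without a test. P-values measure the spread between cows. Alternatives were other normalizations, filters, weights, blocks and covariates, and leaving out each array.

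Genes named with values were, per complex, the 2 smallest unadjusted p in each direction for the slope, the 4 smallest overall for each other comparison, the extremes in AA 2 and AA 9, the largest and smallest SD, and members with a paralogue of the same subunit. NDUFA9, NDUFA12, ATP5MF and ATP5MG were named after their values were seen. Promoter motifs were not searched and no sequences are printed.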

Additional observations from a re-analysis of the deposited data

How the results depend on the processing

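The count of probe sets past the adjusted threshold stayed at 0 for the slope per K allele and for KK minus AA in every alternative run. For KA minus AA it was 0 with all arrays, 47 after quantile normalization, 104 with array weights, and from 0 to 525 when each array was left out in turn, with 525 without AA 1. It was 2181 within array numbers 43 to 56 and 6 there without AA 9, 1 with each array centred on the other bright probe sets, and 1 without AA 2 and AA 9 with an array number block. For KK minus KA it was 3 with array weights and 42 with the fibroblast marker covariate. Members called for KA minus AA numbered 4 within array numbers 43 to 56, and from 0 to 1 over the left-out arrays. The median member estimate for KA minus AA was 0.14 within array numbers 29 to 42, 0.18 there without AA 2, and -0.18 within 43 to 56. Over the left-out arrays it stayed between -0.05 and -0.00, that of the slope between -0.02 and 0.02, that of KK minus AA between -0.03 and 0.07, and that of KK minus KA between -0.01 and 0.10. ATP5IF1 turned sign for KA minus AA, with 0.20 within array numbers 29 to 42 and 0.35 there without AA 2. The cause of these moves was not tested. The centring on other bright probe sets, the fits within array number ranges, and the block without AA 2 and AA 9 were chosen after seeing the data. An intensity trend was not run, since the values carry no levels. No paired analysis was possible because each cow has 1 genotype and the replicate numbers only name cows. With 4 KK cows, the 95% interval of KK minus AA reached at least 0.183 to either side of the estimate of every member.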
